A study of Mus musculus with 26 samples.

Results

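The collagen and laminin chain genes were followed in mouse gastruloids, stem cell aggregates that lengthen in the dish and make trunk and tail tissues of an embryo. Genes were chosen by symbol, as those named for a numbered collagen alpha chain or for a laminin alpha, beta or gamma chain, and kept where their mean over the 26 libraries was at least 10 counts. Of 55141 genes listed, 54 had such a name and 43 reached that mean. They were 9 fibrillar collagens, 4 basement membrane collagens, 11 laminins and 19 other collagens. Lama2, at a mean of 20.7 counts, was the lowest gene kept, and Col8a2, at 7.0 counts, was the highest left out. The other names left out included Col4a3 and Col4a4, with means of 0.808 and 3.19 counts.

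Collagen chains wind into trimers in the endoplasmic reticulum, where prolyl and lysyl hydroxylases modify them, and are trimmed and crosslinked outside the cell. Fibrillar collagens form the fibres of connective tissue and cartilage, type IV collagen forms the sheet of basement membranes, and laminins are trimers of an alpha, a beta and a gamma chain that start basement membrane assembly. In the embryo the somites, the neural tube, the gut endoderm and the vessels are each bordered by a basement membrane, while notochord and sclerotome are early sources of cartilage collagens.

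All 8 lines carried HoxB Del/Del(i9-13). The line with no further edit is named Del, and the line that also had Ins(CBS5-10) is named Ins. On top of Ins(CBS5-10), InsDel5to10 had Del(CBS5-10), InsDel7to10 had Del(CBS7-10) and InsDel8to10 had Del(CBS8-10). InvClone1 and InvClone2 were each 1 clone of Ins(CBS5-10) with Inv(CBS5-10), and InvDel7to10 had Inv(CBS5-10) and Del(CBS7-10) after Ins(CBS5-10). At 120h after aggregation there were 2 libraries each of InsDel7to10, InsDel5to10 and InvClone2, 4 of InvClone1, 1 each of InvDel7to10 and InsDel8to10, and 3 each of Ins and Del. The 144h stage held InvClone1 with 2 libraries and InvDel7to10, InsDel8to10, Ins and Del with 1 each. InvClone1 had 1 further library at 96h and 1 at 168h. The labels sort the libraries under 4 names, ISML_first, ISML_second, ISML_third and TruSeq_second. Only InvClone1, Ins and Del carried more than 1 of these names at a stage. No unedited control is used here.

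Total counts ran from 18746411 to 37716547 per library, with a median of 22616412. The 43 genes took between 0.132% and 0.540% of a library's counts. The highest share was in the ISML_second library of InvClone1 at 144h, which also had the lowest share of mitochondrial counts, 0.0864%, against up to 1.51% elsewhere. This library stood apart from the others, so the counts of genes called between 144h and 120h are also given without InvClone1 below. A TruSeq_second library of InvClone1 at 120h stood apart too, with counts for 54.8% of the listed genes. In bulk RNA, fewer cells of a type and less RNA per cell cannot be told apart.

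The bases before the start of 7 of these genes are shown because their RNA changed between stages or because a pair shares a start region. They come from RefSeq, build GRCm38.p6, and were searched on both strands for 3 promoter motifs. The first was TATAAA, the core of the box that binds the TATA binding protein. The second was CCAAT, bound by factor NF-Y. The third was GGGCGG, bound by Sp factors. Capitals mark each match. The sequences are those of the gene's own strand, so a match on the other strand reads TTTATA for the first motif, ATTGG for the second and CCGCCC for the third, and no matches overlapped in the windows shown. Among all 32851 RefSeq windows of the same 250 bases, 12.4% held TATAAA, 33.8% CCAAT and 32.7% GGGCGG. Of the 43 genes, 29 matched a RefSeq entry, with 33 windows in all, of which 3 held TATAAA, 10 CCAAT and 18 GGGCGG. Each sequence is the 250 bases that end just before the annotated start, 5′ to 3′.
Col3a1, chr1:45311288-45311537, + strand: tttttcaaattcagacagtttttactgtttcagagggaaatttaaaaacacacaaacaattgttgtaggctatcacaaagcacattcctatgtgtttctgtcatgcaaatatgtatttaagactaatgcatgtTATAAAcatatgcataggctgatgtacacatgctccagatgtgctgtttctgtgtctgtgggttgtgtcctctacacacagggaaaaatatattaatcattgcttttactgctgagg
Col1a2, chr6:4505368-4505617, + strand: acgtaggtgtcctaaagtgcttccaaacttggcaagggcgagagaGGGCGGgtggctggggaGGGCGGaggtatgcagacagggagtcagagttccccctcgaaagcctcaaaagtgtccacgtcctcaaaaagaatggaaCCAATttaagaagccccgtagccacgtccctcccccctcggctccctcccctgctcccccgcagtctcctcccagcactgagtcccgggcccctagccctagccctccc
Lama5, chr2:180225860-180226109, - strand: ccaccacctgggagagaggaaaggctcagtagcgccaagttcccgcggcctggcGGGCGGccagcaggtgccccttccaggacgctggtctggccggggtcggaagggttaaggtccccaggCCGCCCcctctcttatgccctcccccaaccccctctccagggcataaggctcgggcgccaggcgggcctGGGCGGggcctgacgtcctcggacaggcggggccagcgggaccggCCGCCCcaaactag
Lamb1, chr12:31265043-31265292, + strand: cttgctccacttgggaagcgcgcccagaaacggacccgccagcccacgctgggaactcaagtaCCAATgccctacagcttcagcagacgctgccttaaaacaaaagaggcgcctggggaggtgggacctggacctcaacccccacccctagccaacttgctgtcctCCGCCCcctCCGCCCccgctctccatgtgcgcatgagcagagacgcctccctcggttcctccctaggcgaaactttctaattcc
Lamb2, chr9:108479612-108479861, + strand: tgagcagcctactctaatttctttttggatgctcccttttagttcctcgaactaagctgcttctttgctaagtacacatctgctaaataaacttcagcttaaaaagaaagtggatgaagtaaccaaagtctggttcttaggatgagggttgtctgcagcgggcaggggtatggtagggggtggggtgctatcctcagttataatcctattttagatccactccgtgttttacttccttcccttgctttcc
Col4a5, chrX:141475169-141475418, + strand: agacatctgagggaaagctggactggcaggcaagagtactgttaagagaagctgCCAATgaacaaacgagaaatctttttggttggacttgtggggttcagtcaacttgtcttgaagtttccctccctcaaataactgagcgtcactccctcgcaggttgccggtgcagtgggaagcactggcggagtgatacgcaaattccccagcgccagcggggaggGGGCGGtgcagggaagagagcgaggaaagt
Col4a6, chrX:141474077-141474326, - strand: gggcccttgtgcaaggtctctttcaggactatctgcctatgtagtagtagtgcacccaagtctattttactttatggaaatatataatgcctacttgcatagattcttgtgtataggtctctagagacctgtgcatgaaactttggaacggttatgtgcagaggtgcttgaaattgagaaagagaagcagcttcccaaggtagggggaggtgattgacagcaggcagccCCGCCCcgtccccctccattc
By their RefSeq starts, Col4a6 and Col4a5 were transcribed away from each other, with 1342 bases between their starts. Col4a1 and Col4a2 also faced away from each other, but their first bases overlapped by 22, in capitals here within 30 bases of the + strand. No source used here says whether the counting used strand or how it treated reads on those 22 bases.
Col4a1 and Col4a2, chr8:11312801-11312830, + strand: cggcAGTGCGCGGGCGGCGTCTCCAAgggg
Of the 7 windows of 250 bases, the one of Col3a1 held TATAAA, and the one of Lamb2 held none of the 3 motifs. Col3a1 had 35.2% G and C in this window and Lama5 72.4%. A match is a description of letters and does not show a site in use.

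Levels of different genes were compared as FPKM, the authors' length-scaled values, as the mean ± SD over the 26 libraries. Of the 43 genes, 8 had a mean above 10 FPKM, 10 lay between 1 and 10 FPKM, and 25 were under 1 FPKM. Col4a1, a main chain of every basement membrane, had the highest mean, 47.0 ± 15.8 FPKM, with its partner Col4a2 at 22.3 ± 9.93 FPKM. Col18a1, a basement membrane collagen that carries heparan sulfate, was close to Col4a1 at 44.3 ± 18.4 FPKM, less than the SD of either gene apart. Col18a1 stood above Col4a1 in 11 of the 26 libraries, among them 4 of the 5 ISML_second libraries at 144h and all 4 ISML_first libraries, and below it in all 5 ISML_second libraries at 120h. Lamb1 and Lamc1, the beta and gamma chains of the early embryonic laminins, had 29.9 ± 6.20 and 27.4 ± 1.96 FPKM. Their alpha partners were lower, Lama1 at 9.13 ± 2.28 FPKM and Lama5 at 7.28 ± 2.92 FPKM, and these neighbours again lay within each other's SD.

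Among the fibrillar chains Col2a1, the chain of cartilage and notochord sheath collagen, led with 28.3 ± 12.0 FPKM. Col3a1, the chain of type III collagen of soft connective tissue and vessels, averaged 10.7 ± 14.9 FPKM, an SD above its mean. Col5a1, which helps to start fibrils, had 6.28 ± 3.03 FPKM and Col1a2, a chain of type I collagen, 2.92 ± 1.33 FPKM. Of the other collagens Col26a1 had 28.8 ± 11.9 FPKM, and the transmembrane chains Col23a1 and Col13a1 had 3.98 ± 1.61 and 2.76 ± 1.42 FPKM. The X-linked basement membrane chains Col4a5 and Col4a6 were the lowest of their class, at 2.62 ± 0.665 and 1.24 ± 0.411 FPKM. The other fibrillar chains averaged 0.130 to 0.879 FPKM, the other laminins 0.0804 to 4.44 FPKM and the rest of the other collagens 0.0904 to 1.2 FPKM.

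**Figure D1:**
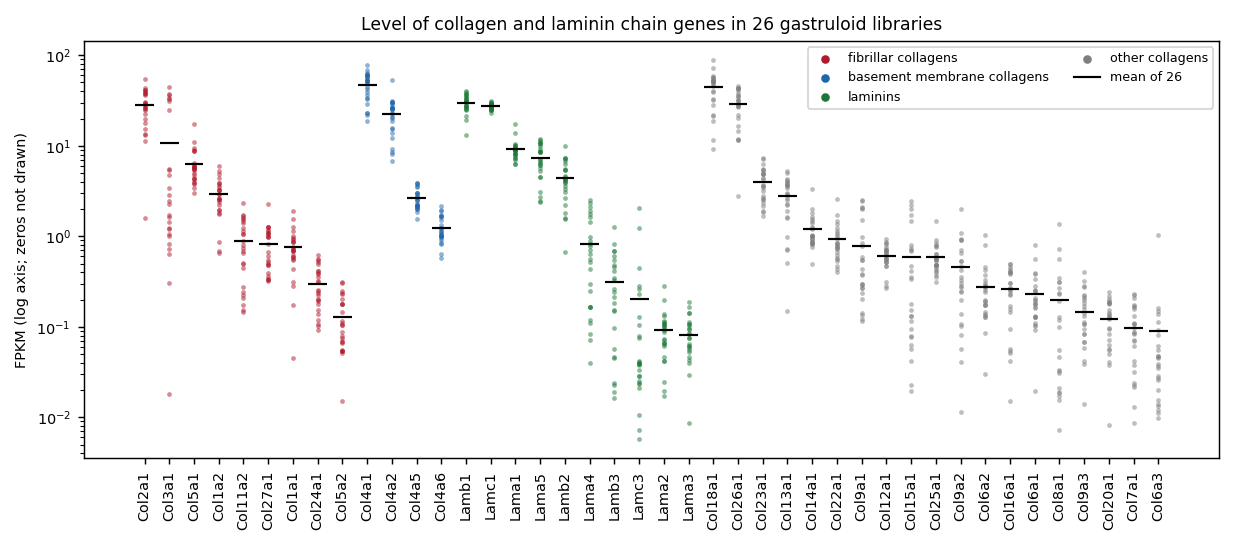
FPKM (log axis) of 42 of the 43 chain genes in each of the 26 libraries, 1 point a library, ordered by mean within class, with a bar at the mean of 26 and values of 0 left undrawn. Lamc1 points lie close together between 23.1 and 31.2 FPKM, while Col3a1 spans 0.0180 to 44.4 FPKM.

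Levels of 1 gene in different libraries were compared as CPM, counts scaled to the library's TMM-adjusted total. Lamc1 varied least, with a coefficient of variation of 9.09% over the 26 libraries. Lamc3, a gamma chain of late and neural tissues, varied most at 220%, followed by Col3a1 at 160%. Col4a5 and Lamb1 were also steady, at 19.0% and 21.7%. Those 26 libraries mix stages, lines and library names, which the next comparisons take apart.

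The stages were compared in the 10 ISML_second libraries, which gave 5 lines 1 library each at 144h and at 120h (edgeR's quasi-likelihood test with line and stage as terms, Benjamini-Hochberg adjusted p under 0.05). Between these stages, 21 of the 43 chain genes (48.8%) passed, while 15.1% of all 16043 genes tested did. Of them 15 were higher at 144h, where the background was 9.33%, and 6 were lower, where it was 5.81%. The median log2 fold change was 0.27 over the 43 genes and -0.01 over all genes tested. All 43 passed the filter on low counts. The 144h libraries all lay above the 120h libraries for 15 of the 43 (8.51% of all genes with a mean of at least 10 counts) and all below for 3 (9.25%). The labels do not say that libraries came from separate cultures, so the p-values measure the spread between these libraries. Without InvClone1 the other 4 lines gave 31 of 43 (background 29.9%), of which 17 were higher (15.5%) and 14 lower (14.4%). All 21 calls were kept there in the same direction. Without either library of Del the count was 12, of which 10 were higher and 2 lower, with a background of 8.67% or 8.77%. Calls lost when a line or a setting was changed are named beside the genes. In the lists of values that follow, the lines come in the order InvClone1, InvDel7to10, InsDel8to10, Ins and Del.

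Among the fibrillar collagens 3 of 9 rose and 2 fell (3 and 4 without InvClone1). Col3a1 changed most of the 43. It had 623, 314, 301, 280 and 254 CPM at 144h, against 22.4, 43.6, 47.1, 19.6 and 23.7 CPM at 120h. The stages did not overlap, and InvClone1 was the highest library at 144h. The log2 fold change was 3.52 ± 0.30 (SE, adjusted p = 0.000212), and 3.16 ± 0.26 without InvClone1.

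Col2a1 had 662, 394, 406, 350 and 412 CPM at 144h, against 290, 309, 287, 263 and 282 CPM at 120h. Its lowest 144h library lay above its highest 120h library, and the log2 fold change was 0.62 ± 0.12 (adjusted p = 0.0119), or 0.46 ± 0.04 in the 4 lines. Col5a1 had 256, 110, 104, 127 and 103 CPM at 144h, against 64.1, 67.0, 68.7, 62.4 and 65.1 CPM at 120h. It was higher in all 5 lines, by 1.02 ± 0.20 on the log2 scale (adjusted p = 0.0107), or 0.76 ± 0.07 in the 4 lines, and the call was lost with no filter on low counts.

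Col1a2 went the other way. It had 34.6, 23.8, 13.8, 23.7 and 17.7 CPM at 144h, against 34.1, 49.2, 35.6, 34.0 and 34.2 CPM at 120h. It was lower in 4 lines and near its 120h value in InvClone1, and the log2 fold change was -0.75 ± 0.19 (adjusted p = 0.0305). In the 4 lines it was -0.95 ± 0.14. The call was lost with no filter on low counts and without any one of those 4 lines. Its partner Col1a1 had 12.9 ± 8.28 CPM at 144h and 9.07 ± 1.83 CPM at 120h (SD, n = 5 each) and did not pass (adjusted p = 0.356). Col24a1, a fibrillar chain of developing bone in mice, fell by 1.02 ± 0.25 on the log2 scale (adjusted p = 0.0283), with 1.19 to 2.86 CPM at 144h and 3.13 to 5.50 CPM at 120h, and this call too was lost without any one of those 4 lines. Col11a2 and Col27a1 passed only without InvClone1, both lower, by 0.68 ± 0.09 and 0.34 ± 0.08 on the log2 scale. Col5a2 and Col1a1 passed in neither set of lines.

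Of the 4 basement membrane collagens 1 rose (1 rose and 2 fell without InvClone1). Col4a5 had 30.7, 28.3, 29.9, 27.9 and 25.9 CPM at 144h, against 18.2, 20.7, 22.1, 21.8 and 19.9 CPM at 120h. The stages did not overlap, and the log2 fold change was 0.49 ± 0.09 (adjusted p = 0.00740). The mean of the lines' contrasts in the fit of all 26 libraries did not call Col4a5, Lama4, Lama5, Lamb2, Lamb3 or Col23a1. Col4a6, which starts beside it, had 8.17 to 11.1 CPM at 144h and 9.83 to 11.8 CPM at 120h and did not pass (log2 fold change -0.15 ± 0.09, adjusted p = 0.347). Col4a6 was among the 7 chain genes lower at 144h in all 5 lines. Of all genes with a mean of at least 10 counts, 18.1% were.

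The main pair depended on InvClone1. Col4a1 had 916, 496, 436, 536 and 455 CPM at 144h, against 575, 647, 571, 569 and 559 CPM at 120h. Col4a2 had 670, 272, 228, 278 and 247 CPM at 144h, against 307, 345, 294, 289 and 281 CPM at 120h. Both genes were lower at 144h in 4 lines and higher in InvClone1. Neither passed with 5 lines (adjusted p = 0.768 and 0.910), and both were lower in the 4 lines, Col4a1 by 0.28 ± 0.05 and Col4a2 by 0.23 ± 0.05 on the log2 scale (adjusted p = 0.00182 and 0.00639).

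Among the 11 laminins 5 rose and 2 fell (5 and 3 without InvClone1). Of the alpha chains, Lama4, the chain of vessel and mesenchymal laminin, had 26.5, 19.0, 15.9, 20.6 and 17.6 CPM at 144h, against 9.53, 15.8, 5.42, 7.55 and 7.71 CPM at 120h. It rose by 1.2 ± 0.19 on the log2 scale (adjusted p = 0.00412), and InvDel7to10 had the smallest difference. Lama5, the alpha chain of most mature basement membranes, fell in each line. It had 189, 100.5, 115, 131 and 119 CPM at 144h, against 203, 209, 230, 191 and 207 CPM at 120h. Its log2 fold change was -0.68 ± 0.14 (adjusted p = 0.0126), or -0.84 ± 0.10 in the 4 lines, and the call was lost without InvDel7to10, InsDel8to10 or Del. Lama1, the alpha chain of the first embryonic basement membranes, had 164 ± 38.8 CPM at 144h and 140 ± 8.06 CPM at 120h (n = 5 each) and did not pass (adjusted p = 0.247).

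The beta chains moved apart. Lamb1 had 250.3, 182, 194, 218 and 189 CPM at 144h, against 258, 274, 263, 256 and 247 CPM at 120h. It fell by 0.32 ± 0.09 on the log2 scale (adjusted p = 0.0450), and the ranges overlapped through InvClone1. The call was lost at a minimum count of 50 and without any one of the other 4 lines. Lamb2, the beta chain of synaptic and renal basement membranes, had 85.6, 53.3, 57.0, 48.2 and 54.6 CPM at 144h, against 36.5, 42.9, 42.3, 34.2 and 37.0 CPM at 120h. It rose without overlap, by 0.63 ± 0.13 (adjusted p = 0.0155), or 0.46 ± 0.05 in the 4 lines, and was not called without Del.

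Of the gamma chains, Lamc3 had 10.9, 4.23, 1.78, 3.13 and 2.09 CPM at 144h, against 0.540, 0.712, 0.533, 0.328 and 0.449 CPM at 120h. It was higher in all 5 lines, by 2.91 ± 0.37 on the log2 scale (adjusted p = 0.00132), or 2.43 ± 0.27 in the 4 lines. Lamc1, shared by most laminins, stayed within a narrow range, with 255 ± 11 CPM at 144h and 258 ± 17.5 CPM at 120h (log2 fold change 0.01 ± 0.07, adjusted p = 0.955). Of the chains of epithelial laminins, Lamb3 rose by 0.82 ± 0.15 on the log2 scale (adjusted p = 0.00720). The alpha chain Lama3 had 0.583 ± 0.231 CPM at 144h and 1.31 ± 0.452 CPM at 120h (adjusted p = 0.0619, and 0.0308 in the 4 lines). Lama2, the muscle laminin chain, did not pass.

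Of the 19 other collagens 6 rose and 2 fell (8 and 5 without InvClone1). Col15a1, a multiplexin next to vessel and muscle basement membranes, had 25.1, 11, 13.5, 14.8 and 13.1 CPM at 144h, against 4.75, 6.17, 2.66, 2.49 and 3.51 CPM at 120h. It rose by 2.02 ± 0.25 on the log2 scale (adjusted p = 0.00124). Col9a1, a chain of the collagen that coats cartilage fibrils, had 20.9, 13.1, 11.9, 12.8 and 11.9 CPM at 144h, against 3.74, 6.45, 4.84, 3.56 and 3.39 CPM at 120h. It rose by 1.70 ± 0.21 (adjusted p = 0.00118), with no overlap between the stages. Col9a2, of the same trimer, had 16.9, 4.88, 6.93, 7.53 and 7.08 CPM at 144h, against 1.66, 1.38, 2.66, 2.34 and 2.16 CPM at 120h, a rise of 2.01 ± 0.28 (adjusted p = 0.00216). The third chain, Col9a3, had 1.60 ± 1.05 CPM at 144h and 1.55 ± 0.457 CPM at 120h and did not pass (adjusted p = 0.951). Col6a3, Col8a1 and Col22a1 also rose, by 1.58 ± 0.32, 1.24 ± 0.28 and 0.88 ± 0.22 on the log2 scale. Without Del none of these 3 was called, and Col8a1 and Col22a1 were not called without InsDel8to10 or Ins either, nor Col22a1 with no filter on low counts. Col6a3 and Col8a1 stayed low, at 0.957 to 1.87 and 1.66 to 4.30 CPM at 144h.

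Of the transmembrane collagens 2 fell. Col13a1, found at cell contacts and muscle junctions, had 16.7, 5.06, 4.79, 10.7 and 4.13 CPM at 144h, against 24.2, 22.2, 21.8, 24.2 and 21.6 CPM at 120h. The stages did not overlap, and the log2 fold change was -1.63 ± 0.28 (adjusted p = 0.00530), or -1.91 ± 0.23 in the 4 lines. Col23a1 had 56.6, 22.8, 22.9, 30.6 and 20.6 CPM at 144h, against 62.5, 54.3, 41.9, 61.0 and 47.2 CPM at 120h. It fell by 0.87 ± 0.16 (adjusted p = 0.00813), and the call was lost when the line term was dropped. The third transmembrane member, Col25a1, had 4.8 ± 0.780 CPM at 144h and 4.01 ± 0.477 CPM at 120h and did not pass (adjusted p = 0.215). Col18a1 had 775, 393, 369, 401 and 409 CPM at 144h, against 372, 383, 346, 332 and 366 CPM at 120h, and passed only in the 4 lines (0.15 ± 0.04 on the log2 scale, adjusted p = 0.00887). Col26a1 passed only there too, lower by 0.41 ± 0.08. Col6a2 (higher), Col7a1 and Col16a1 (both lower) were the other members of this class that passed only in the 4 lines. Col6a1, Col12a1, Col14a1 and Col20a1 passed in neither.

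**Figure D2:**
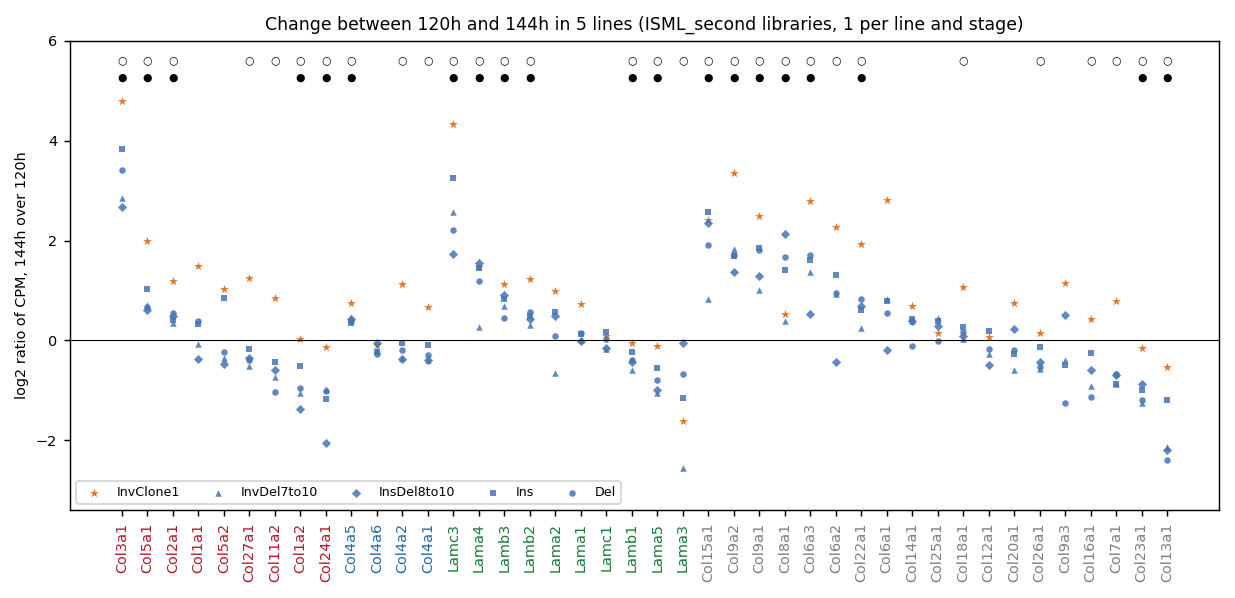
Log2 ratio of CPM at 144h over 120h for 42 of the 43 chain genes, 1 point a line, with InvClone1 as orange stars and the other lines in blue. Filled dots at the top mark genes past the threshold with 5 lines, open dots those past it without InvClone1. The stars lie above the blue points for most genes, and Col3a1 is the highest gene in each of the 5 lines, at 2.67 to 4.8.

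Without InvClone1 the log2 fold changes of further called genes were 0.41 for Col4a5, -0.40 for Lamb1, 1.09 for Lama4, 0.72 for Lamb3 and -1.26 for Col24a1. They were 1.87 for Col15a1, 1.48 for Col9a1, 1.64 for Col9a2, 1.31 for Col6a3, 1.40 for Col8a1, 0.60 for Col22a1 and -1.07 for Col23a1, and each of these 12 genes passed there too. InvClone1 was the highest of the 5 lines at 144h in 36 of the 43 genes, and the share of all genes for which it was highest was not counted. Its change between the stages was set against that of the other 4 lines in 1 model (edgeR, a comparison chosen after the data were seen). The change was larger, on the signed log2 scale, in InvClone1 for 24 of the 43 genes and smaller for none, with 33.9% of all genes differing either way. The share of all genes in each direction was not counted for this comparison. By class these were 7 of 9 fibrillar collagens, 3 of 4 basement membrane collagens, 4 of 11 laminins and 10 of 19 other collagens. The differences were 1.39 ± 0.11 for Col4a2, 0.99 ± 0.11 for Col4a1, 0.95 ± 0.09 for Col18a1, 0.77 ± 0.08 for Col2a1 and 1.28 ± 0.15 for Col5a1 on the log2 scale. InvClone1 had 1 library a stage in that model, so its own spread was not measured and is taken to be like that of the other 4 lines (3 residual degrees of freedom). The differences rest on the single 144h library with the low mitochondrial share, after which the comparison was chosen, so the line and that library cannot be told apart here. The other 144h library of InvClone1, an ISML_third one, had 150 CPM of Col3a1 and 98.1 CPM of Col4a2, against 623 and 670 CPM in the ISML_second one.

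The collagen enzymes and partners changed in both directions between the stages. Of 28 collagen processing genes tested, 6 were higher and 3 lower at 144h (9 and 7 of 30 without InvClone1). Plod1, a lysyl hydroxylase, had 56.9 ± 4.59 CPM at 144h and 105 ± 4.66 CPM at 120h, and P4ha3, a prolyl hydroxylase subunit, 2.08 ± 0.976 CPM at 144h and 0.393 ± 0.246 CPM at 120h (n = 5 each). Pcolce2, which aids removal of the collagen propeptide, fell by 1.94 ± 0.21 on the log2 scale. Of 14 basement membrane partners 3 rose and 3 fell (4 and 4 without InvClone1). Sparc, which binds type IV collagen, rose by 0.85 ± 0.06, while Smoc1 fell by 0.86 ± 0.07 and Fbln1 fell by 0.88 ± 0.08. Of 13 receptors 2 rose, the collagen receptors Ddr1 by 0.66 ± 0.06 and Itga1 by 0.75 ± 0.16. Of 12 fibril partners 1 rose and 3 fell, with Lum higher by 2.33 ± 0.30, Fmod lower by 1.54 ± 0.21 and Fn1, fibronectin, lower by 0.53 ± 0.09. Without InvClone1, 4 receptors rose and 2 fell, and 2 fibril partners rose and 3 fell. With 5 lines the medians of the 4 lists were 0.11, 0.08, 0.08 and -0.09, against -0.01 over all genes. Each of the 11 named genes of these lists also passed without InvClone1, in the same direction.

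Markers of the tissues also moved between these stages. All 6 tailbud and presomitic markers fell, with a summed level of 159 to 265 CPM at 144h and 450 to 559 CPM at 120h. All 7 neural tube markers rose, to 388 to 708 CPM at 144h, against 128 to 187 CPM at 120h. Of 8 somite and sclerotome markers 2 rose and 5 fell (508 to 618 CPM at 144h, 913 to 1054 CPM at 120h). Of 5 cardiac and lateral mesoderm markers tested 3 rose (20.7 to 155 CPM at 144h, 8.48 to 24.2 CPM at 120h), and InvClone1 held the 155, while the other 4 lines reached up to 79.6 CPM at 144h. Endoderm markers summed to 318 to 470 CPM at 144h and 228 to 314 CPM at 120h, with 3 of 7 higher and 1 lower. Notochord (2 of 5 higher), endothelial (1 of 7 each way) and parietal endoderm markers (1 of 5 each way) overlapped between the stages. No marker was at 0 in all the libraries of a stage. Without InvClone1, 5 tailbud and presomitic markers fell, all 7 neural tube markers rose, and 4 cardiac markers rose. There 3 somite markers rose and 5 fell, and 5 endoderm markers rose and 1 fell. Of the other sets, 2 notochord, 1 endothelial and 3 parietal endoderm markers rose, and 1, 2 and 1 fell. The part of these markers in the collagen and laminin changes was not tested.

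The ratio of chains within a library was followed in FPKM. In all 26 libraries Col4a1 stood above Col4a2, by 1.47 to 3.40 times with a median of 2.26. Col1a2 stood above Col1a1 in all 26 as well, by 1.07 to 19.1 times, although the type I trimer holds more of the Col1a1 chain. Lamc1 was 1.40 to 4.08 times Lama1. In the ISML_second libraries the ratio of Lamb1 to Lamb2 was 2.73, 3.48, 3.77, 4.73 and 3.52 at 144h, against 7.33, 6.89, 7.87, 8.18 and 8.42 at 120h. The ratio of Lama1 to Lama5 was 1.51, 1.80, 1.65, 1.42 and 1.44 at 144h, against 0.843, 0.809, 0.803, 0.910 and 0.766 at 120h. In these ISML_second libraries Lama1 was thus the higher of the pair at 144h and the lower at 120h in each of the 5 lines. The ratio of Col4a5 to Col4a6 was 2.53, 2.97, 2.92, 2.93 and 2.99 at 144h, against 1.5, 1.93, 1.80, 2.26 and 1.95 at 120h. Within the ISML_second libraries none of these 3 ratios overlapped between the stages, with InvClone1 or without it, and the ratios themselves were not tested. Libraries of other names differed. Over all 26 libraries Lama1 was above Lama5 in 16. At 120h the ISML_third library of InvClone1 had 6.27 FPKM of Lama1 and 2.42 FPKM of Lama5. Replicate 2 of Ins at 120h, an ISML_first library, had 3.62 FPKM of Col4a5 and 1.16 FPKM of Col4a6, a higher ratio than in any 144h library.

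**Figure D3:**
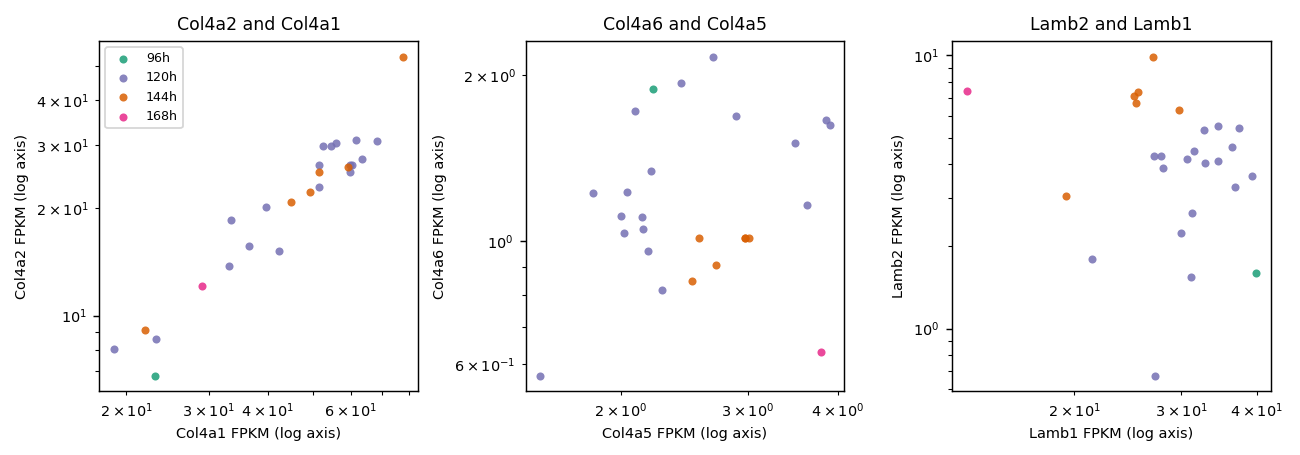
FPKM of 2 chains plotted against each other on log axes, 1 point a library of 26, coloured by stage. Col4a2 follows Col4a1 along a line, while the 144h libraries lie lower in Col4a6 for their Col4a5, and higher in Lamb2 for their Lamb1, than most 120h libraries.

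InvClone1 gave a longer course, with 1 ISML_third library at each of 96h, 120h, 144h and 168h and so no test. Counting error is given as an exact 95% Poisson interval. At each successive stage 13 of the 43 genes were higher (9.55% of all genes with a mean of at least 10 counts) and 3 were lower (9.13%). From 96h to 168h, 21 genes were more than 2-fold higher (16.3% of all genes) and 6 were lower by as much (8.17%). By class, 5 of 9 fibrillar collagens, 0 of 4 basement membrane collagens, 6 of 11 laminins and 10 of 19 other collagens were among the 21.

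Col3a1 had 0.0811 CPM at 96h (2 counts, interval 0.00983 to 0.293), 6.83 at 120h, 150 at 144h and 256 at 168h (250.2 to 262). Col2a1 had 12.5, 79.8, 179 and 219 CPM at 96h, 120h, 144h and 168h, and Col1a1 0.365, 1.80, 2.57 and 6.38 CPM. Col5a1 was lowest at 120h, with 36.7, 23.4, 41.5 and 86.0 CPM. Col18a1 had 75.8, 89.6, 174 and 261 CPM. The 3 genes that were lower at each stage were Lamb1, Col4a6 and Col13a1. Lamb1 had 371, 242, 169 and 107 CPM, Col4a6 19.6, 13.1, 8.25 and 6.60 CPM, and Col13a1 17.3, 3.46, 1.91 and 0.856 CPM.

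The beta laminins drew closer in this course. Lamb2 had 13.4, 6.83, 25 and 54.1 CPM at 96h, 120h, 144h and 168h and the FPKM ratio of Lamb1 to Lamb2 was 24.95, 40.4, 6.34 and 1.80. Lama1 was highest at 96h, with 291, 103, 141 and 163 CPM. Lamc3 was highest at 168h, with 0.0811, 0.277, 0.266 and 17.9 CPM. Lamc1 again stayed within 231 to 257 CPM. Col4a5 had 23.0, 21.7, 22.8 and 37.3 CPM, so that its FPKM ratio to Col4a6 was 1.2 at 96h and 5.99 at 168h. For 2 genes there was no count at 96h, Lama3 and Col8a1. There the 95% interval reached 0.150 CPM, and 3 counts would be 0.122 CPM. Col8a1 reached 7.85 CPM at 168h, 64.5-fold that level of 3 counts.

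**Figure D4:**
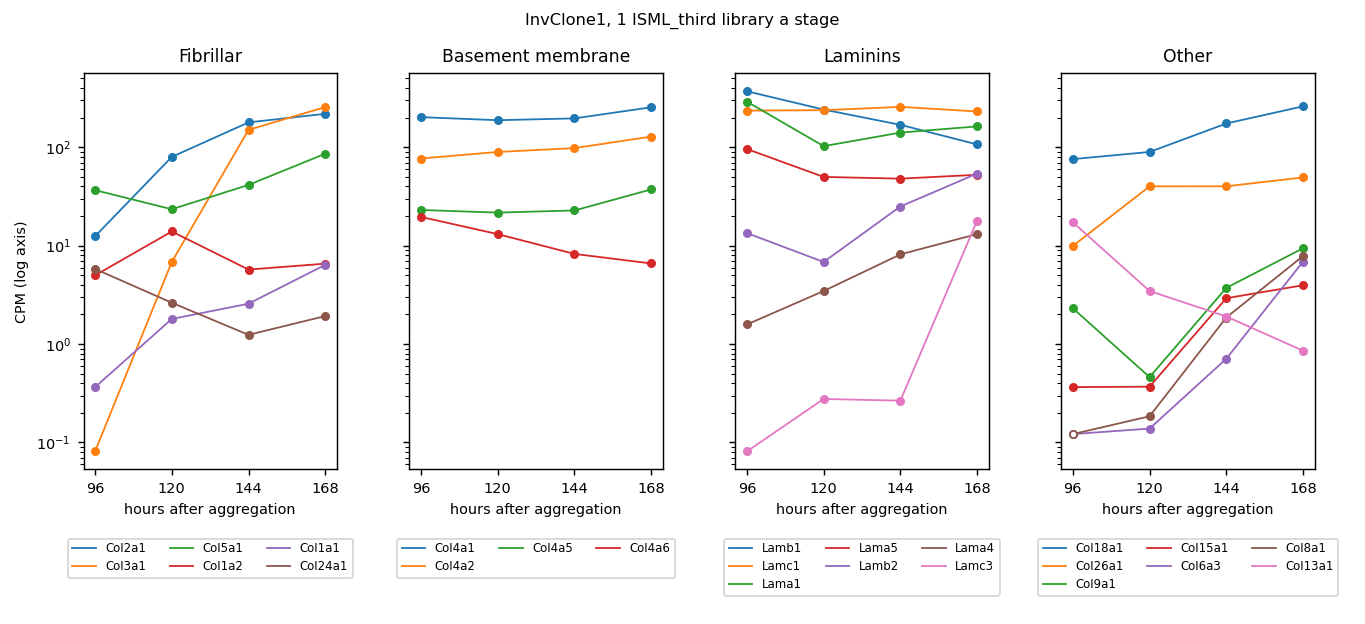
CPM (log axis) of chosen chain genes in InvClone1 at 96h, 120h, 144h and 168h, 1 ISML_third library a stage, with an open point at the level of 3 counts where the count was 0. Col3a1 climbs from the bottom to the top of its panel, and the lines of Lamb1 and Lamb2 approach each other by 168h.

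In the same 4 libraries the summed neural tube markers were 18.5, 77.6, 400 and 763 CPM at 96h, 120h, 144h and 168h. The tailbud and presomitic markers summed to 1373, 276, 121 and 201 CPM, with Msgn1 at 0 at 144h and 168h. The somite and sclerotome markers summed to 289, 713, 382 and 182 CPM, with Pax1 at 0 at 96h and Nkx3-2 at 0 at 96h and 120h. Of the neural tube markers Dbx1 was at 0 at 96h. Their part in the course of the chain genes was not tested. With 1 library a stage, the stage and the library cannot be told apart.

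Genotype was compared at 120h in 5 contrasts from 1 fit of all 26 libraries with terms for group and library name (edgeR, 17769 genes). None of the 43 genes passed in any of them. At 120h InvClone1 and Ins shared only the name ISML_second, with 1 library each, so their contrast leaned on those libraries. For InsDel7to10 against InsDel5to10 the background was 0.253%, for InsDel7to10 against InvClone2 0.141%, for InsDel5to10 against InvClone2 0.152%, for InvClone1 against Ins 0.0169% and for Ins against Del 0.00563%. Genes lower in the contrast were 0.0281% of all for InsDel7to10 against InvClone2 and 0.0225% for InsDel5to10 against InvClone2. At an unadjusted p under 0.05 there were 4, 5, 3, 0 and 0 of the 43 in these 5 contrasts, in the order given, where the shares of all genes were 10.7%, 8.93%, 6.53%, 0.951% and 1.06%. DESeq2 called 2 in the first, both lower, where it called 0.535% of all genes lower, and 0 in each of the other 4.

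Col4a6 was among those 2. It had 6.53 and 9.24 CPM in InsDel7to10, against 21.1 and 19.4 CPM in InsDel5to10, and 19.2 and 13.7 CPM in InvClone2. The log2 fold change of InsDel7to10 against InsDel5to10 was -1.36 ± 0.29 (edgeR, adjusted p = 0.0874, and 0.00351 with DESeq2). Both InsDel7to10 libraries lay below those of InsDel5to10. Tissue markers differed between the same libraries. The 7 endoderm markers summed to 15.1 and 40.5 CPM in InsDel7to10, against 69.2 and 242 CPM in InsDel5to10, with a median log2 fold change of -2.44. The 5 notochord markers summed to 1.43 and 5.76 CPM in InsDel7to10, where Noto was at 0, against 6.20 and 14.6 CPM in InsDel5to10, with a median of -2.36. The somite and sclerotome markers went the other way, summing to 1043 and 1345 CPM in InsDel7to10, against 590 and 695 CPM in InsDel5to10. The median log2 fold change was positive for this set and for the tailbud and presomitic and neural tube sets. It was negative for the endothelial, cardiac and lateral mesoderm, and parietal endoderm sets. None of the markers tested in these sets passed, and their part in the Col4a6 difference was not tested.

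Some calls appeared when a library was left out or a block was added. Without replicate 2 of InsDel7to10, edgeR called 3 of the 43 in InsDel7to10 against InsDel5to10, Col4a6 lower and Col2a1 and Lamb2 higher, and that fit called 5.28% of all genes (4.89% higher and 0.388% lower). Without replicate 1 of InsDel7to10, Col18a1 was the only one of the 43 called in InsDel7to10 against InvClone2, lower in a fit that called 1.33% of all genes lower. With the replicate number as a block, 7 of the 39 chain genes tested were lower in InsDel5to10 against InvClone2, and 4.84% of all genes tested in that fit were lower. They were Col2a1, Col3a1, Col4a1, Col4a2, Col18a1, Col22a1 and Lama5. Such genes are named because of their count, after their values were seen.

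The leading genes show how wide the 120h groups were. Col3a1 had 19.99 ± 13.2 CPM in Ins and 13.2 ± 9.43 CPM in Del (SD, n = 3 each), and 14.7 ± 8.40 CPM in InvClone1 (n = 4). Col2a1 had 261 ± 10.49 CPM in Ins and 264 ± 15.6 CPM in Del. Col4a1 had 454 ± 104 CPM in Ins and 477 ± 72.0 CPM in Del. Lamc1 had 228 ± 21.1 CPM in Ins and 245 ± 16.2 CPM in Del. Each difference was smaller than an SD of at least one of the groups. In the lines with ISML_third libraries alone, Col2a1 had 119 and 238 CPM in InsDel7to10, 105 and 110 CPM in InsDel5to10, and 159 and 186 CPM in InvClone2. The ranges of InsDel7to10 and InvClone2 overlapped, and InsDel5to10 lay below both (adjusted p = 0.286 for InsDel7to10 and 0.750 for InvClone2 as the other line).

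Under ISML_third against ISML_second, 26 of the 43 genes were lower and 0 were higher, with a background of 36.3% either way and 20.7% lower. The median over the 43 was -1.92 on the log2 scale and that over all genes -0.05. They were 7 of 9 fibrillar collagens, 2 of 4 basement membrane collagens, 5 of 11 laminins and 12 of 19 other collagens. This contrast rests on InvClone1 alone, with 1 library of each name at 120h and at 144h. Without 1 or the other of the 144h libraries 16 genes passed, all lower, where 12% or 12.3% of all genes were lower. Without the pair of libraries that stood apart 13 did, all lower, where 10.6% of all genes were lower.

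Col5a1 had 23.4 CPM in the ISML_third library of InvClone1 at 120h, against 64.1 CPM in the ISML_second one, and 41.5 against 256 CPM at 144h. Its log2 difference was -2.05 ± 0.23 (adjusted p = 0.000255). Col13a1 had 3.46 against 24.2 CPM at 120h and 1.91 against 16.7 CPM at 144h (-2.96 ± 0.36). Col18a1, Col2a1 and Col4a2 differed by -2.10 ± 0.25, -1.87 ± 0.24 and -2.28 ± 0.36. Col22a1, Col27a1 and Col6a2 differed by -1.51 ± 0.24, -2.89 ± 0.46 and -2.86 ± 0.47, and the laminins Lamb2 and Lama5 by -2.08 ± 0.36 and -2.0 ± 0.35. Lamc1 and Col4a5, the steady genes, did not pass (-0.08 ± 0.12 and -0.09 ± 0.21, adjusted p = 0.630 and 0.779).

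Across all lines at 120h, the 7 ISML_third libraries had 177, 350.0 and 498 CPM of Col4a1 as lowest, median and highest, against 559, 571 and 647 CPM in the 5 ISML_second libraries. Col11a2 had 2.05, 3.02 and 9.72 CPM in the ISML_third libraries, against 21.3, 23.5 and 25.4 CPM in the ISML_second ones. The ranges of these chosen genes did not overlap, and the share of chain genes or of all genes separated in this way was not counted. The ISML_third group came from 4 lines and the ISML_second group from 5, with only InvClone1 in both. For the other lines, line and library name thus cannot be told apart in these ranges. Lamb1 overlapped, with 195, 281 and 292 CPM in ISML_third and 247, 258 and 274 CPM in ISML_second libraries.

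ISML_second against ISML_first, which rests on Ins and Del at 120h, gave 1 of 43, with a background of 2.3% either way, 1.9% higher and 0.4% lower. That gene was Col15a1, with 2.49 CPM in the ISML_second library and 0.286 and 0.268 CPM in the ISML_first libraries of Ins. In Del it had 3.51 CPM in the ISML_second library and 0.156 and 0.499 CPM in the ISML_first ones. The log2 difference was 3.29 ± 0.58 (adjusted p = 0.0119), and the call was lost without replicate 1 or 3 of Del or replicate 3 of Ins. The median over the 43 was 0.49. TruSeq_second against ISML_second, from InvClone1 at 120h, gave 0 of 43 (background 0.405%), with a median of -0.75. At an unadjusted p under 0.05 there were 19, with 19.4% of all genes. DESeq2 called 3, Col11a2, Col15a1 and Col27a1, all lower, where it called 1.54% of all genes lower. Without replicate 4 of InvClone1, the ISML_second one, edgeR called 2, Col22a1 and Col5a1, both lower, where 1.32% of all genes were lower. Without that library, TruSeq_second and ISML_second shared no line and stage. The contrast then ran through the ISML_third libraries of InvClone1 and the 144h ISML_second library that stood apart. These 2 calls are thus not a direct difference at 120h.

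**Figure D5:**
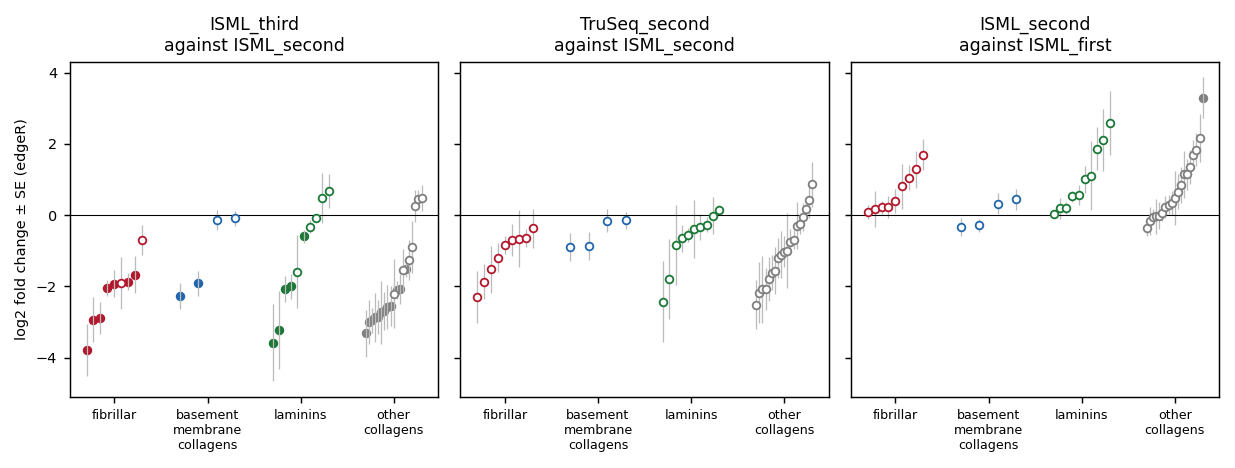
Log2 fold change ± SE (edgeR) of 42 of the 43 chain genes for 3 contrasts of library name, grouped by class and sorted within it, with filled points past the threshold. In ISML_third against ISML_second most points lie below 0, and in ISML_second against ISML_first 1 point, Col15a1, is filled.

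Tissue markers had these levels under the library names. At 120h the notochord markers summed to 1.43 to 21.0 CPM in ISML_third and 29 to 37.1 CPM in ISML_second libraries. Parietal endoderm markers summed to 1.19 to 18.7 CPM in ISML_third and 29.2 to 43.5 CPM in ISML_second libraries. Cardiac and lateral mesoderm markers summed to 1.75 to 8.23 CPM in ISML_third and 8.48 to 24.2 CPM in ISML_second libraries. Endoderm markers (15.1 to 242 CPM in ISML_third, 228 to 314 CPM in ISML_second) and endothelial markers (7.72 to 113 CPM in ISML_third, 98.7 to 180 CPM in ISML_second) overlapped. So did tailbud and presomitic markers (276 to 647 CPM in ISML_third, 450 to 559 CPM in ISML_second). Somite and sclerotome markers (590 to 1345 CPM in ISML_third, 913 to 1054 CPM in ISML_second) overlapped as well. The same held for neural tube markers (59.9 to 218 CPM in ISML_third, 128 to 187 CPM in ISML_second). In the contrast itself, 2 of 5 notochord, 1 of 5 parietal endoderm, 3 of 5 cardiac, 2 of 7 endoderm, 4 of 6 tailbud and 4 of 8 somite markers were lower, and no neural tube or endothelial marker passed, while 20.7% of all genes were lower. The part of these tissues in the lower chain genes was not tested.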

How the data were processed

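RNA-seq of whole gastruloids gave 26 libraries in 15 groups, of which 8 held 1 library. The authors deposited 1 table of raw counts per gene and 1 of FPKM. The submitters' processing notes name cutadapt 1.18, STAR 2.7.10a, Cufflinks 2.2.1 and the build mm10. Per the labels, 2 libraries of InvClone1 at 120h, replicates 2 and 3, were made with the TruSeq kit and most others with another. Another 8 columns were not used. The values of 1 of the 43 chain genes, which is kept in the counts, and 1 further chain gene are not reported here. The genes described, the pathway and marker lists and the tests were chosen with earlier results of these data known.

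Counts were tested with edgeR 4.0.16 (R 4.3.3; TMM scaling, robust quasi-likelihood fit, filter at a minimum count of 10, Benjamini-Hochberg adjusted p under 0.05). Genotype and library name were tested in 1 fit of 26 libraries with group and library name as terms (8 residual degrees of freedom), and stage in the 10 ISML_second libraries with line and stage (4 residual degrees of freedom). SE is the size of the log2 fold change over the square root of F. CPM are counts over the TMM-adjusted total. The deposited FPKM served only to compare genes within a library. Sequences are RefSeq's. The scripts were tested on simulated data. DESeq2 1.42.0, other filters and leaving out each library were alternatives. The named genes are the 4 highest of each class by mean FPKM, up to 10 per direction by smallest adjusted p in each comparison, and up to 3 per pathway list.

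Same-numbered libraries deviated from their group means together for Ins against Del (correlations 0.511, 0.262 and 0.641) and for InvClone1 against Ins (0.119, 0.277 and 0.270), so a fit with the replicate number as a block was also made. It called 0 of the 42 chain genes tested for Ins against Del (0.013% of all genes) and 0 of the 41 tested for InvClone1 against Ins (0% of all genes). In Ins and Del replicates 1 and 2 were ISML_first and replicate 3 was ISML_second, so replicate number and library name cannot be told apart in those correlations. Replicates 1, 2 and 3 of InvClone1 shared no library name with Ins, so line and library name cannot be told apart in that block fit.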

Additional observations from a re-analysis of the deposited data

Results flagged for a closer look

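Among the 21 genes tested for a line apart from the other lines in its log2 ratio of 144h over 120h CPM, 5 had one. InvClone1 was far above the other 4 lines for Col4a5 (0.76), Col2a1 (1.19), Lamb2 (1.23) and Col9a2 (3.34). InvDel7to10 was far below the others for Lama4 (0.27). Among 21 genes tested within the 4 libraries of InvClone1 at 120h, Col8a1 had 1 library apart, the ISML_second one, at 1.16 CPM. Chance puts about 1 in 20 such groups past this limit.

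The change between the stages differed between InvClone1 and the other 4 lines for 24 of the 43 genes (edgeR, interaction of line and stage, with 33.9% of all genes differing). InvClone1 had 1 library a stage there, so its own spread was not measured and is taken to be like that of the other 4 lines (3 residual degrees of freedom), and the comparison was chosen after that 144h library was seen to stand apart. The InvClone1 library at 144h had 0.0864% mitochondrial counts, and its part in this difference was not tested.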

How the results depend on the processing

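The count for 144h against 120h was 21, and leaving out 1 library or line gave 12 to 31. ISML_third against ISML_second gave 26, with 13 without the pair of libraries that stood apart and 16 to 27 when 1 library was left out. With no filter on low counts, Ins against Del gave 1 (0.24% of all genes) and InsDel5to10 against InvClone2 gave 4 (1.03%). In that setting InsDel7to10 against InsDel5to10 gave 7 (2.58%) and InsDel7to10 against InvClone2 gave 4 (1.49%). ISML_second against ISML_first gave 15 (4.85%) and TruSeq_second against ISML_second gave 20 (4.01%). DESeq2 gave 2 for InsDel7to10 against InsDel5to10 (1.4% of all genes), 3 for ISML_second against ISML_first (3.89%) and 3 for TruSeq_second against ISML_second (3.35%). Leaving out 1 library gave 0 to 3 for InsDel7to10 against InsDel5to10, 0 to 1 for InsDel7to10 against InvClone2, 0 to 1 for ISML_second against ISML_first and 0 to 2 for TruSeq_second against ISML_second. The causes were not tested. No gene called in 144h against 120h, ISML_third against ISML_second or ISML_second against ISML_first changed direction under the alternatives run for it. The median over the chain genes tested changed sign in 4 genotype contrasts. For InvClone1 against Ins it was 0.22, and -0.27 with no library term or in the compared libraries alone, and -0.58 with the replicate block. For InsDel7to10 against InsDel5to10 it was 0.15, and -0.21 without replicate 1 of InsDel7to10 and -0.05 without replicate 1 of InsDel5to10. For InsDel5to10 against InvClone2 it was -0.34, and 0.03 without replicate 1 of InsDel5to10. For InsDel7to10 against InvClone2 it was -0.32, and 0.05 without replicate 2 of InvClone2.

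With the replicate block, InsDel5to10 against InvClone2 gave 7, all lower (the correlation of same-numbered libraries was 0.317, over 2 pairs). The other 2 pairs of groups had negative correlations, and with crossed numbers 0 of the 38 genes tested passed in each. The groups of 2 libraries and the single libraries at 96h, 144h and 168h limit the precision of every comparison.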
